A study of Homo sapiens with 6 samples.

Results

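The genes described are 9 that encode the amyloid precursor protein, its paralogue APLP2 and the secretases that cut them, chosen by gene symbol: APP, APLP2, BACE1, BACE2, PSEN2, NCSTN, APH1A, APH1B and PSENEN. All 9 were found among the 27469 genes of the count table, and all 9 passed the filter on low counts that left 12125 genes for testing. They were measured in HMC3, an immortalised human line labelled as microglia, by 3' RNA sequencing. The Control group had 3 libraries, and the IL-33 group had 3 libraries of cells given interleukin-33, an alarmin of the interleukin-1 family, for 24 h, with no genotype, dose or vehicle given for either group. HMC3 is a single line, and the labels do not state that each library had its own culture. The p-values therefore rest on the spread of these 6 libraries, which may be technical.

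APP and APLP2 encode type I membrane proteins with a large ectodomain, 1 pass through the membrane and a short cytoplasmic tail. Their ectodomain is shed either by an alpha-secretase of the ADAM family or by the aspartyl protease BACE1, the beta-secretase, after which the gamma-secretase complex cuts the remaining stub within the membrane. In APP, cutting by BACE1 and then gamma-secretase releases the amyloid beta peptide found in the plaques of Alzheimer's disease. Gamma-secretase is built of a presenilin, which holds the catalytic aspartates, with nicastrin, an APH1 protein and PEN-2, and it also cuts Notch receptors and many other membrane stubs.

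Library totals ran from 5739947 to 10217529 counts, with Control 3 the lowest. The mean correlation of Control 3 with the other libraries across the tested genes was 0.956 on the log2 scale, against 0.967 to 0.970 for the rest. Values without Control 3 are therefore given beside the results that it moved most. Of 11 microglia and macrophage markers, 6 had 0 counts in every library (ITGAM, P2RY12, TMEM119, CX3CR1, SPI1 and TYROBP), and the 11 together summed to between 3.18 and 6.88 CPM in Control and between 2.95 and 6.15 CPM after IL-33. CPM here is the count of a gene relative to its library's size, with the size scaled by TMM, a method that lines the libraries up on the bulk of their genes. Fibroblast and pericyte markers, 8 in number, summed to between 2289 and 2511 CPM in Control and between 2433 and 2568 CPM after IL-33. Of these 8, COL3A1 and ACTA2 had 0 counts in every library and DCN had 14 in all, and the sum was nearly all TAGLN, COL1A1 and THY1. CD68, a lysosomal protein of macrophages that other cells also make, gave most of the microglial counts over all libraries, with 149. CD14 had more than CD68 in Control 3 (18 against 10 counts) and in IL-33 1 (19 against 16 counts).

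Positions are from GENCODE release 29 on GRCh38, the assembly named hg38 in the submitters' processing notes. APP (ENSG00000142192) lies on chromosome 21 from 25880550 to 26171128 on the minus strand, and BACE2 (ENSG00000182240) on the same chromosome from 41167801 to 41282518 on the plus strand. APLP2 (ENSG00000084234) lies on chromosome 11 from 130068147 to 130144811, plus strand, and BACE1 (ENSG00000186318) on chromosome 11 from 117285207 to 117316259, minus strand. Chromosome 1 holds APH1A (ENSG00000117362) from 150265399 to 150269580, minus strand, NCSTN (ENSG00000162736) from 160343272 to 160358952, plus strand, and PSEN2 (ENSG00000143801) from 226870184 to 226896105, plus strand. APH1B (ENSG00000138613) lies on chromosome 15 from 63276018 to 63309126, plus strand, and PSENEN (ENSG00000205155) on chromosome 19 from 35745114 to 35747519, plus strand.

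The upstream sequences of both precursors and of the beta-secretase are shown because these genes set the substrate and the first amyloid-producing cut. Each is the 250 bases before a RefSeq start site (GRCh38.p14), 5' to 3' on the strand of the gene, at chr21:26171129-26171378 for APP, chr11:130070318-130070567 for APLP2 and chr11:117316257-117316506 for BACE1. Capitals mark GC boxes (GGGCGG) and the TATA box (TATAAA), each on either strand.
APP: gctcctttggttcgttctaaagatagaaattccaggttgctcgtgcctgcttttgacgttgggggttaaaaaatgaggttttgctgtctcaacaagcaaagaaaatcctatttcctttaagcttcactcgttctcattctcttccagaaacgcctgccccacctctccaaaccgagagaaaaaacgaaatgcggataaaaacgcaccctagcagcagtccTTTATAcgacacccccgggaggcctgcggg
APLP2: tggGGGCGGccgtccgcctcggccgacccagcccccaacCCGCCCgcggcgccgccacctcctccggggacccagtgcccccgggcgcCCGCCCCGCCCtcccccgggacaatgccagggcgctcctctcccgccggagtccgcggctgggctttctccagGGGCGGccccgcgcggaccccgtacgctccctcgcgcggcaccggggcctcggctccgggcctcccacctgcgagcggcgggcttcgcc
BACE1: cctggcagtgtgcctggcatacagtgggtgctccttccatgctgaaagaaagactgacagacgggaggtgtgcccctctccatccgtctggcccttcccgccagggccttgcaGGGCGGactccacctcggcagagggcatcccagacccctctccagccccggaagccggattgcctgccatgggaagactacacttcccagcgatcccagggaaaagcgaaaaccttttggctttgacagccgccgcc
The APLP2 window was 82.4% G and C and held 5 GC boxes, of which 2 overlap within 1 unbroken stretch of capitals. Its RefSeq start site lies 2421 bases inside the GENCODE position of the gene given above. The APP window was 47.6% G and C, with no GC box and 1 match to the TATA box, on the opposite strand, and a second RefSeq window of APP was 78.8% G and C with neither motif. The BACE1 window was 62.8% G and C with 1 GC box, and its 2 other RefSeq windows, at start sites within the gene, were 53.2% G and C with no GC box and 54% with 1. GC boxes were present in 42.6% of 35116 RefSeq windows of this length and the TATA box in 10.7%. The NF-kB consensus, present in 5.21% of the windows on either strand, had no match in the 10 windows of the 7 members that were matched (all but BACE2 and APH1B). A match is a description of these letters and not a measure of binding.

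How much of each messenger the cells held was set out first, since a 3' tag count does not grow with the length of the transcript and the genes can be placed beside each other. The ends of BACE1 and PSENEN overlap other genes, so their levels are less certain. The precursor and APH1A messengers were abundant, BACE2 and PSENEN intermediate, and NCSTN, BACE1, APH1B and PSEN2 low. APLP2 was the highest, at 405 CPM over the 6 libraries (range 363 to 465 CPM), above 97.2% of the genes tested. APH1A at 215 CPM (192 to 236) and APP at 187 CPM (170 to 198) followed, and their ranges overlapped, with APH1A the higher in 5 of 6 libraries. BACE2 measured 69.8 CPM (62.4 to 82.3) and PSENEN 43.1 CPM (37.7 to 48.3). From APLP2 to APH1A, from APP to BACE2, from BACE2 to PSENEN and from PSENEN to NCSTN the ranges did not overlap. NCSTN had 18.1 CPM (2.90 to 23.0), BACE1 9.87 CPM (6.82 to 14.2), APH1B 9.26 CPM (5.25 to 13.3) and PSEN2 3.46 CPM (2.04 to 6.54), and the range of each overlapped that of the next. BACE1 was above APH1B in 3 of 6 libraries, so the order of these 2 genes was not fixed by the data, whereas APH1B was above PSEN2 in 6 of 6. The levels are of messenger in a bulk sample, where fewer cells with a transcript and less of it per cell cannot be told apart.

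**Figure D1:**
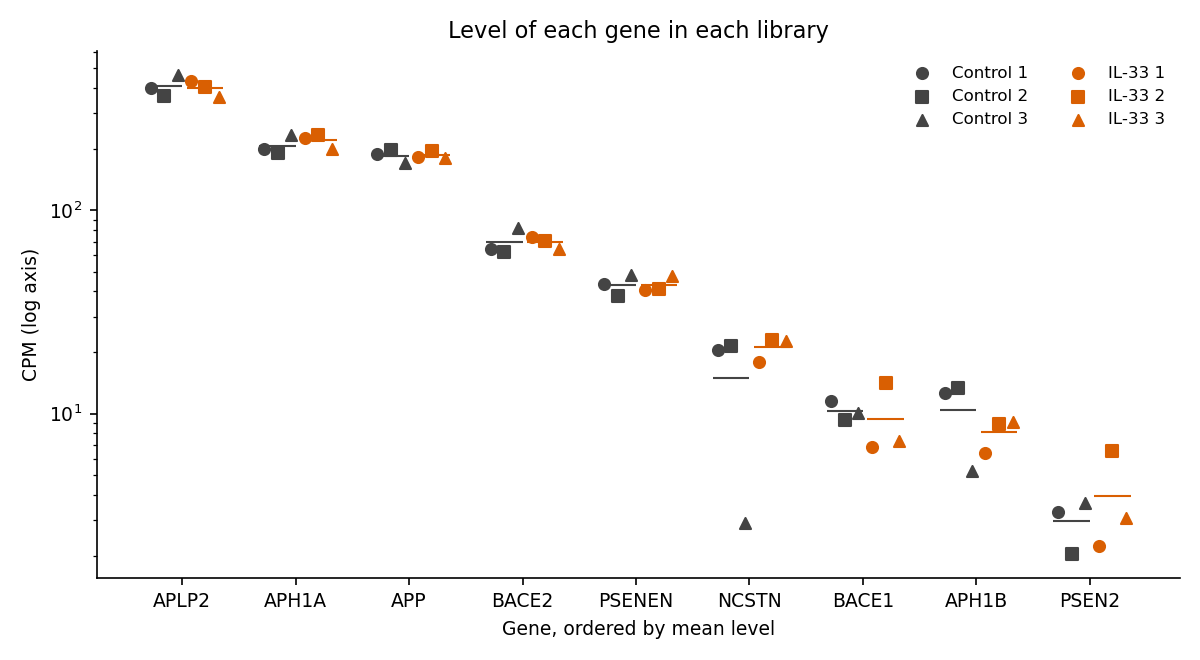
Level of the 9 genes in each of the 6 libraries, in CPM on a log axis, with the mean of each group as a horizontal line. Control values are dark and IL-33 values orange. In every gene the groups overlap, NCSTN in Control 3 stands apart at 2.90 CPM, and BACE1 and PSEN2 are highest in IL-33 2.

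Setting the IL-33 libraries against Control asked whether 24 h of the cytokine shifted the messengers of amyloid precursor processing. None of the 9 genes passed the test, and in none did the 3 IL-33 values lie all above or all below the 3 Control values. The better measured genes had narrow intervals: the 95% intervals of the ratio for APP, APLP2, BACE2 and APH1A all lay between 0.824 and 1.24. In edgeR's quasi-likelihood fit, with Benjamini-Hochberg adjustment, 0 of 9 members had an adjusted p under 0.05 (smallest 0.999), against 0 of all 12125 genes (0%). At an unadjusted p under 0.05 there were 0 of 9 members (smallest 0.276), against 2.43% of all genes, and 0 of 9 with groups that did not overlap, against 8.06% (4.54% higher after IL-33 and 3.51% lower). The 95% interval lay within -1 to 1 on the log2 scale for 6 of 9, against 73.4% of all genes. Of the 9, 5 had a log2 fold change above 0, against 48.9% of all genes, and 4 below. Their median was 0.0071, against -0.0051 over all genes tested, and the median size without sign was 0.087, against 0.13.

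Neither precursor differed between the groups by more than the spread of the libraries. APP measured 189, 198 and 170 CPM in Control 1, 2 and 3 and 184, 197 and 181 CPM in IL-33 1, 2 and 3. Control 3 was the lowest library and Control 2 the highest, so both extremes lay in the Control group. The means were 186 ± 14.1 and 187 ± 8.31 CPM (SD, n = 3 each), a log2 fold change of 0.012 ± 0.10 (SE), and the 95% interval allowed a ratio from 0.872 to 1.17. APLP2, the paralogue that lacks the amyloid beta sequence, measured 399, 365 and 465 CPM in Control and 433, 403 and 363 CPM after IL-33. Control 3 was here the highest library, and IL-33 3 the lowest. The means were 410 ± 50.6 and 400 ± 34.9 CPM (SD, n = 3 each), with a log2 fold change of -0.035 ± 0.11 (SE), and the ratio's interval running from 0.838 to 1.14.

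Of the 2 beta-secretase family genes, BACE2, which cuts APP mainly inside the amyloid beta sequence, was the more abundant in every library. BACE2 had 64.4, 62.4 and 82.3 CPM in Control and 74.0, 70.9 and 64.6 CPM after IL-33. Its IL-33 values lay inside the Control range, and the log2 fold change was 0.0071 ± 0.14 (SE), or 0.14 ± 0.13 without Control 3, its highest library. BACE1 had 11.5, 9.26 and 10.1 CPM in Control and 6.82, 14.2 and 7.31 CPM after IL-33. The IL-33 group thus held the highest library and the 2 lowest. The means were 10.3 ± 1.14 and 9.43 ± 4.10 CPM (SD, n = 3 each), with a log2 fold change of -0.12 ± 0.32 (SE), and the ratio's interval running from 0.581 to 1.45. Without IL-33 2 the value was -0.55, and it did not pass (edgeR, unadjusted p = 0.116, adjusted p = 0.9998). The spread of BACE1 in Control (11.1% of the mean) was near that of counting alone (10.98%), and in IL-33 it was 43.5% against 10.5%.

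The last 500 bases of the BACE1 annotation, where 3' tags fall, overlap RNF214 on the opposite strand, which had 3002 counts in all against 520 for BACE1. The strand setting of the counting is not given in the sources used here, so reads of this pair cannot be placed with certainty. RNF214 had 65.4 CPM in IL-33 2 and 67.7 and 52.3 CPM in IL-33 1 and 3. The part of reads from this overlap in the BACE1 counts was not tested. BACE1-AS, the antisense transcript described as a stabiliser of the BACE1 messenger, had 12 counts in all, with 0 in 3 libraries.

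Gamma-secretase was taken subunit by subunit. The catalytic subunit gene PSEN2 had 3.28, 2.04 and 3.62 CPM in Control and 2.24, 6.54 and 3.06 CPM after IL-33. IL-33 2 stood alone above the other 5 libraries, at 67 counts (95% Poisson interval 51.9 to 85.1, which covers counting error only) where the others had 17 to 33. The log2 fold change was 0.42 ± 0.53 (SE), with an interval of the ratio from 0.622 to 2.87, and without IL-33 2 it was -0.16. The sign of the difference in PSEN2 was therefore set by 1 library.

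NCSTN encodes nicastrin, the large glycoprotein that takes part in substrate recognition. It measured 20.7, 21.6 and 2.90 CPM in Control and 17.9, 23.0 and 22.8 CPM after IL-33. Control 3 held 16 counts (95% Poisson interval 9.15 to 26.0), where the level of Controls 1 and 2 would have given 117 counts at its depth. With all libraries the means were 15.1 ± 10.5 and 21.2 ± 2.89 CPM (SD, n = 3 each), a log2 fold change of 0.46 ± 0.63 (SE), and the ratio's interval ran from 0.458 to 4.12, the widest of the 9. Without Control 3 the log2 fold change was 0.0057 ± 0.21, and Controls 1 and 2 lay among the IL-33 values.

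No other subunit was as low in Control 3, relative to the other libraries, as NCSTN. PSENEN, which encodes PEN-2, the small subunit that completes the active complex, had 43.5, 37.7 and 48.3 CPM in Control and 40.7, 40.9 and 47.6 CPM after IL-33. Its log2 fold change was -0.0011 ± 0.16 (SE), and Control 3 was its highest library. The last 500 bases of the PSENEN annotation overlap AD000671.1 on the same strand, which runs on to 35754519, and AD000671.3 on the opposite strand. AD000671.1 holds 13.9% of the stretches of 50 bases in the last 500 bases of the coding transcripts of PSENEN. For the other 8 genes no such stretch occurred in a transcript of another gene. Per 100 counts of APH1A, NCSTN had 10.4 and 11.3 counts in Controls 1 and 2, 1.24 in Control 3, and 7.92, 9.76 and 11.3 in the IL-33 libraries. PSENEN had 21.8, 19.7 and 20.7 in Control and 18.002, 17.3 and 23.8 after IL-33, so its ratio to APH1A in Control 3 lay within the range of the other libraries. APH1B had 6.33, 6.96 and 2.25 in Control and 2.83, 3.76 and 4.53 after IL-33, with Control 3 the lowest. PSEN2 had 1.64, 1.07 and 1.55 in Control and 0.990, 2.77 and 1.53 after IL-33.

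APH1A and APH1B encode alternative forms of the scaffold subunit. APH1A had 199, 192 and 234 CPM in Control and 226, 236 and 201 CPM after IL-33, and the log2 fold change was 0.087 ± 0.11 (SE), with the ratio's interval running from 0.912 to 1.24. APH1B had 12.6, 13.3 and 5.25 CPM in Control and 6.39, 8.89 and 9.08 CPM after IL-33, and the log2 fold change was -0.38 ± 0.34 (SE), with the ratio's interval running from 0.472 to 1.25. Control 3 went against Controls 1 and 2 in both genes, and with it the groups overlapped. Without Control 3, APH1B had -0.68 (unadjusted p = 0.0287, adjusted p = 0.729 in edgeR) and APH1A 0.18 (unadjusted p = 0.0474, adjusted p = 0.781 in the same fit). In that fit 2 of 9 members had an unadjusted p under 0.05, against 6.3% of the 12611 genes tested, and 0 of 9 passed after adjustment.

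**Figure D2:**
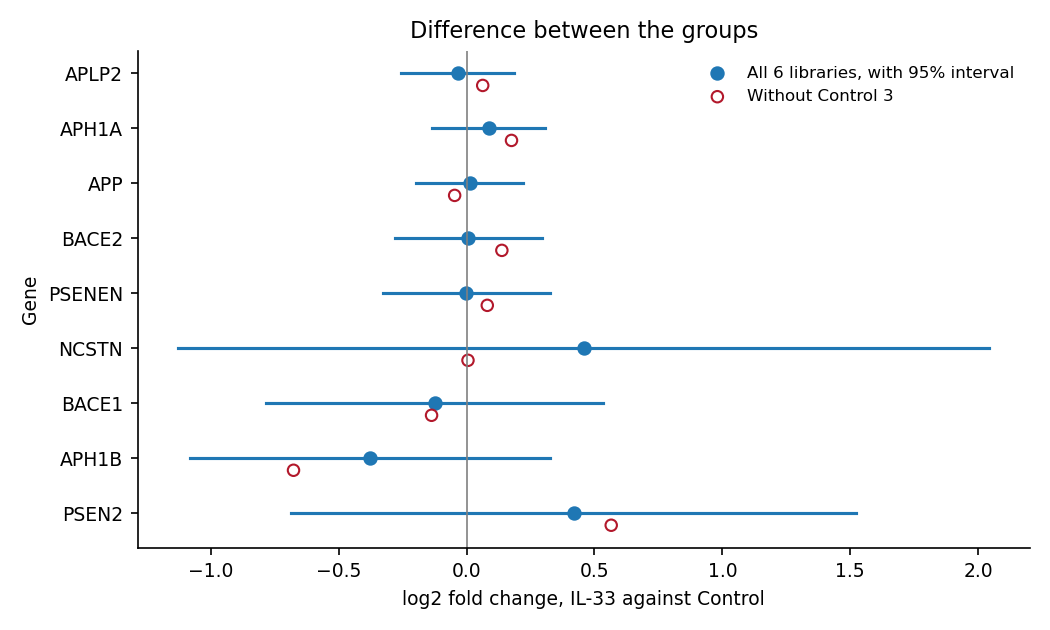
The log2 fold change of IL-33 against Control for each gene with all 6 libraries (filled points, bars are 95% intervals) and without Control 3 (open circles, drawn without interval). The intervals of all 9 genes include 0, NCSTN moves from 0.46 to 0.0057 without Control 3, and APH1B from -0.38 to -0.68.

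Within a library, the share of each paralogue in its pair does not depend on library scaling, and shares are given with exact binomial intervals (95%, Clopper-Pearson). APP made up 32.1%, 35.1% and 26.8% of the counts of APP plus APLP2 in Control and 29.8%, 32.8% and 33.3% after IL-33. The interval of Control 3 (25.3% to 28.3%) lay below those of the other 5 libraries, and the group means were 31.4% ± 4.22 and 31.98% ± 1.87 (SD, n = 3 each). BACE1 made up 15.2%, 12.9% and 10.96% of the counts of BACE1 plus BACE2 in Control and 8.44%, 16.6% and 10.2% after IL-33, with means of 13.0% ± 2.10 and 11.8% ± 4.33. In counts, BACE2 thus outnumbered BACE1 by between 5.01 and 10.8 to 1. The end of BACE1 overlaps RNF214 and that of BACE2 overlaps no gene, so the ratio of the messengers is less certain. APH1A made up 94.0%, 93.5% and 97.8% of the counts of APH1A plus APH1B in Control and 97.3%, 96.4% and 95.7% after IL-33, with means of 95.1% ± 2.34 and 96.4% ± 0.792. In each of the 3 pairs the groups overlapped. The difference of IL-33 from Control in the share of APP was 0.62 percentage points, and -1.66 without Control 3. In the share of BACE1 it was -1.26 points, and -3.71 without IL-33 2 but 0.39 without IL-33 1. In the share of APH1A it was 1.32 points, and 2.66 without Control 3, where the 2 remaining Control values lay below all 3 IL-33 values.

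**Figure D3:**
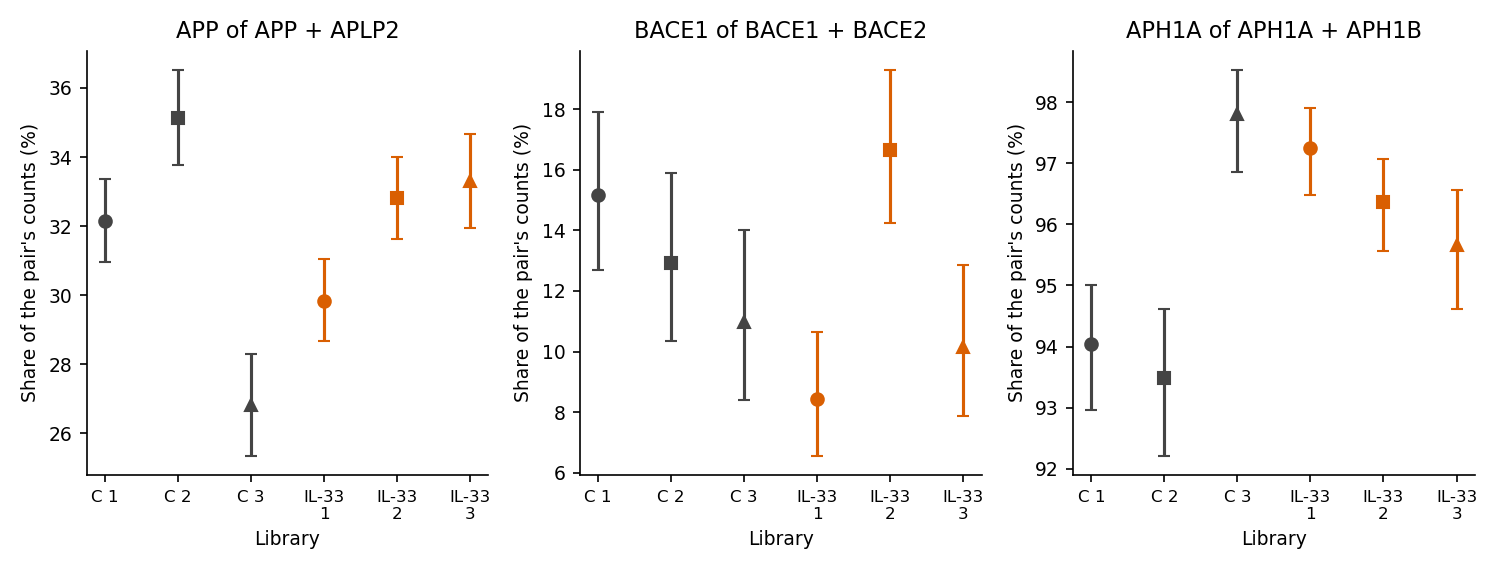
Share of the first gene in the counts of each paralogue pair, in percent, for each library (C 1 to C 3 are Control), with exact 95% binomial intervals, which cover counting error only. The vertical axes do not start at 0. The share of APP is lowest and that of APH1A highest in Control 3, and that of BACE1 is highest in IL-33 2.

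Because single libraries set several of these differences, the deviations of Control 3 and IL-33 2 were placed beside those of all genes. On the log2 scale, NCSTN in Control 3 lay 2.77 below the mean of the other 5 libraries (difference -2.77), where 95% of the 8331 genes at 10 CPM or more lay between -0.97 and 0.58. NCSTN was the fourth lowest of these genes, at rank 4, after THOC3, HMCES and PLAU, which are named here because their values were seen to be the lowest. All 4 were also lower in IL-33 1 than in IL-33 2 and 3, to 12.5 CPM against 26.3 and 33.6 CPM in THOC3, and by less in NCSTN, to 17.9 CPM against 23.0 and 22.8 CPM. COPA, whose start overlaps that of NCSTN by 129 bases on the opposite strand, had 218 CPM in Control 3 and 195 and 202 CPM in Controls 1 and 2. APH1B in Control 3 had a difference of -0.86, and 10.8% of the 3202 genes within a factor of 2 of its level were as low. The other 7 members lay between -0.16 and 0.29 in Control 3. Control 3 was also the library of lowest depth, and the part of depth or RNA quality in these values was not tested.

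In IL-33 2, PSEN2 lay 1.25 and BACE1 0.98 above the mean of IL-33 1 and 3 on the log2 scale. Of the genes within a factor of 2 of their level, 3.33% of 2342 were as high as PSEN2 and 1.19% of 3277 as high as BACE1. The other 7 members lay between -0.11 and 0.22. Both genes were thus highest in the same IL-33 library.

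**Figure D4:**
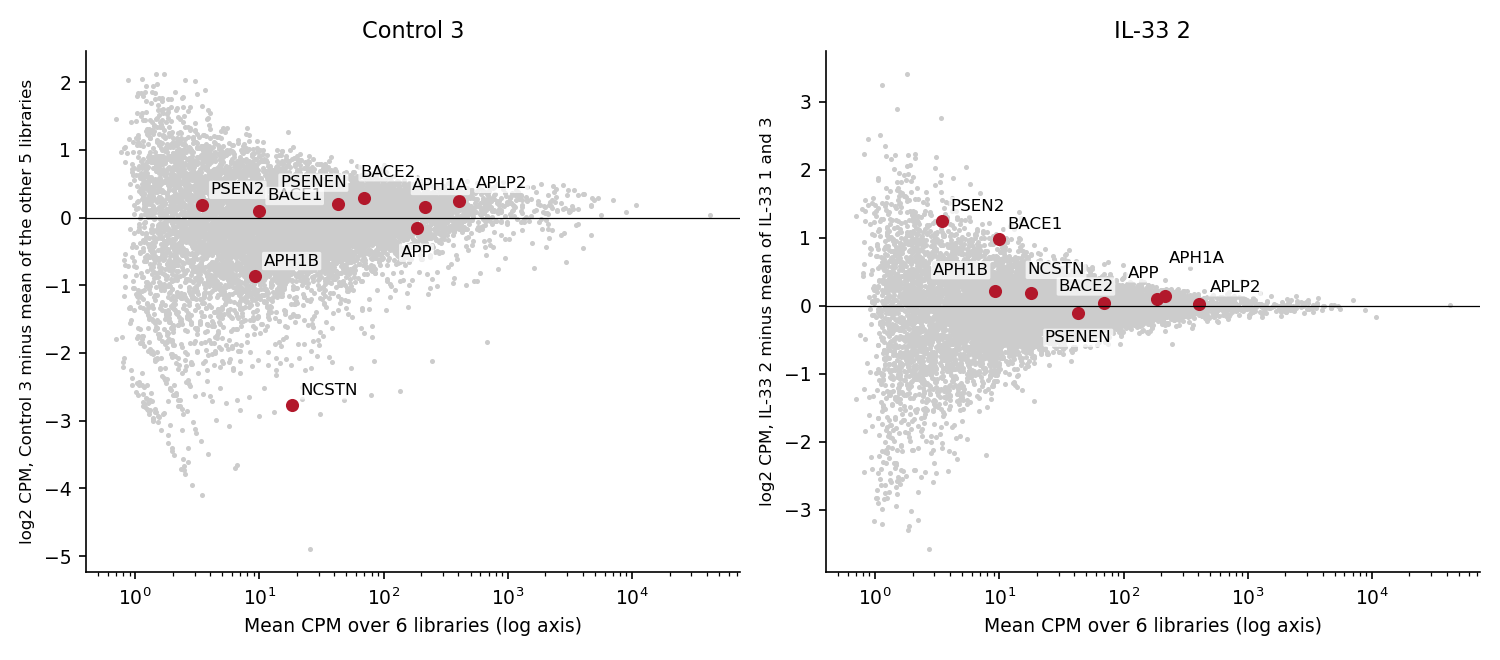
Difference in log2 CPM of Control 3 from the other 5 libraries (left) and of IL-33 2 from IL-33 1 and 3 (right), against mean CPM on a log axis, for all genes tested (grey) and the 9 genes (red). NCSTN lies at -2.77 in Control 3, and PSEN2 and BACE1 lie at 1.25 and 0.98 in IL-33 2.

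Across the 6 libraries, members of 1 pathway did not vary as a block. APLP2, BACE2 and APH1A went together, with Pearson's r of 0.94 for APLP2 and BACE2, 0.88 for BACE2 and APH1A and 0.79 for APLP2 and APH1A, and 0.87, 0.93 and 0.74 without Control 3. APH1B went the other way, with r of -0.94 against BACE2, -0.82 against APLP2 and -0.81 against APH1A (-0.89, -0.64 and -0.75 without Control 3). APP and APLP2 had -0.63, and -0.13 without Control 3, so that relation rested on 1 library. The largest r of APP in size was with PSENEN, at -0.85, and -0.76 without Control 3. APP had 0.80 with NCSTN and 0.78 with APH1B, and 0.37 and 0.54 without Control 3. BACE1 and PSEN2 had 0.77, and 0.47 without IL-33 2. These values describe 6 libraries that share depth and composition, and no p is attached to them.

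Among 8330 other genes at 10 CPM or more, those most like APP over the 6 libraries were LAMP2, a lysosomal membrane glycoprotein (r = 0.99), CENPK, a kinetochore gene (0.98), and ERFE (0.98). Those most like BACE1 were SWAP70 (0.98), APPBP2, which encodes a protein that binds the tail of APP (0.98), and MELTF (0.98). Those most like NCSTN were SNHG6 (0.998), SLC39A9 (0.996) and ENSA (0.995), whose r fell to 0.91, 0.86 and 0.70 without Control 3. These genes were picked as the highest of 8330 over only 6 libraries, so high values were to be found in any case. The r was above 0.9 for 170 genes with APP (2.04%), 36 with BACE1 (0.432%) and 480 with NCSTN (5.76%).

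The rest of the pathway was then read from 10 lists of 81 genes, of which 63 could be tested. None passed the test, and 0 of 63 had an unadjusted p under 0.05, against 2.43% of all genes. Of the 63, 29 (46.0%) had a log2 fold change above 0, against 48.9% of all genes tested, the median was -0.016, and in 55 the 95% interval lay within -1 to 1, against 73.4% of all genes. Groups did not overlap in 2 of 63 (JAG2 and SORL1), against 8.06% of all genes. SORL1 was among the 63 only through its IL-33 libraries, since no Control library held enough of its counts for the filter.

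The alpha-secretases ADAM9, ADAM10 and ADAM17, which compete with BACE1 for APP, were all tested and none passed. ADAM9, the most abundant, had 171, 170 and 105 CPM in Control and 115, 143 and 155 CPM after IL-33. Control 3 was its lowest library. Its log2 fold change was -0.11, and -0.31 without Control 3 (unadjusted p = 0.00229, adjusted p = 0.395 in edgeR). ADAM10, the main constitutive alpha-secretase of APP in neurons, had 0.14 (0.033 without Control 3). Of 5 further genes of the precursor family and gamma-secretase, IFITM3, an interferon-induced membrane protein that binds gamma-secretase, had 295 ± 42.2 CPM in Control and 327 ± 50.6 CPM after IL-33 (SD, n = 3 each), a log2 fold change of 0.15. Without Control 3 it had 0.28 (unadjusted p = 0.00326, adjusted p = 0.430 in edgeR). GSAP, named for gamma-secretase activation, had 1.73 CPM and -0.66 (-0.33 without Control 3). Of the related intramembrane proteases, 4 of 5 were tested, with HM13, the signal peptide peptidase, at -0.032 and SPPL2A at -0.22 (-0.068 without Control 3).

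Of 10 adaptors of the APP tail 9 were tested, and 4 had a log2 fold change above 0. DAB2, an endocytic adaptor, was the most abundant at 449 CPM in both groups, with APBA3 at -0.59 and NUMBL at 0.22. With 1 library left out, APBA3 ran from -0.28 (without IL-33 2) to -1.01 (without IL-33 3). Trafficking genes of APP and BACE1, 18 of 18 tested, were split evenly, with 9 above 0. RTN4, a reticulon that binds BACE1, had 1063 ± 22.4 and 1068 ± 22.4 CPM (SD, n = 3 each). SORL1, the sorting receptor that returns APP from endosomes to the Golgi, had 5, 9 and 1 counts in Control against 14, 18 and 11 counts after IL-33, so the groups did not overlap. The log2 fold change was 1.30, the ratio's interval ran from 0.735 to 8.21 and so included no change, and leaving out 1 library moved the value to between 0.95 (without Control 3) and 2.02 (without Control 2). Its level over the 6 libraries was 1.05 CPM, and it did not pass. SORL1 met the filter through its IL-33 libraries alone, each Control count being under the minimum of 10. That its groups did not overlap was therefore in part fixed by the filter, and is no support for a difference. LRP1, an endocytic receptor of APP, had 36.2, 29.7 and 22.1 CPM in Control and 19.3, 20.3 and 29.9 CPM after IL-33, and the log2 fold change was -0.35 (-0.52 without Control 3).

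Enzymes that degrade amyloid beta were represented by 6 tested of 8, with 1 above 0. The most abundant was the lysosomal protease CTSD, at 165 ± 40.3 CPM in Control and 158 ± 5.35 CPM after IL-33 (SD, n = 3 each). Its log2 fold change was -0.054, and 0.15 without Control 3, its highest library. IDE, the insulin-degrading enzyme, had 0.22 (0.043 without IL-33 2 and 0.39 without Control 3). ECE2, an endothelin-converting enzyme, had -0.34 (-0.15 without Control 1 and -0.63 without Control 3). The BRI family gene ITM2B, whose protein binds APP, had 0.050 (-0.068 without Control 3), and ITM2C had -0.12 (-0.43 without Control 3).

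Substrates of the secretases showed no shift that passed. Among 10 listed substrates of BACE proteases, 4 were tested, with SEZ6L2 at 0.0021, NRG1 at 0.077 and JAG1 at -0.043. The value of SEZ6L2 rested on Control 3, which had 161 CPM where Controls 1 and 2 had 112 and 90.8 CPM: it was 0.25 without Control 3 (unadjusted p = 0.0196, adjusted p = 0.704 in edgeR) and -0.17 without Control 2. NRG1 had -0.049 without Control 3, and JAG1 ran from -0.38 (without IL-33 1) to 0.19 (without IL-33 3). Among 13 listed substrates of gamma-secretase, 9 were tested and 6 lay above 0. CD44, the hyaluronan receptor, was the most abundant at 235 CPM, with -0.061. JAG2, a Notch ligand, had 5.76, 5.17 and 7.24 CPM in Control and 7.57, 8.89 and 7.78 CPM after IL-33. The groups did not overlap and the log2 fold change was 0.43, but the ratio's interval ran from 0.837 to 2.15 and so included no change. EPHB2 had 0.24 (0.14 without IL-33 2 and 0.39 without Control 1). Of 6 Notch target genes, which the Notch domain released by gamma-secretase switches on, 3 were tested. HES4 had 59.3, 60.1 and 58.6 CPM in Control and 40.7, 64.6 and 48.2 CPM after IL-33 (-0.21), and HES1 had 3.87, 3.61 and 1.81 CPM and 2.77, 6.35 and 5.07 CPM (0.58). With 1 library left out, HES4 ran from -0.42 (without IL-33 2) to -0.072 (without IL-33 1), and HES1 from 0.31 (without IL-33 2) to 0.86 (without IL-33 1).

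Without Control 3, 7 of the 67 pathway genes then tested had an unadjusted p under 0.05, namely ADAM9, ITM2C, LRP1 and MME lower and IFITM3, SEZ6L2 and VPS35 higher, and 0 passed after adjustment (smallest 0.395 in edgeR), where 6.3% of all genes had such a p. MME encodes neprilysin, a peptidase of amyloid beta, and had 15, 18 and 0 counts in Control against 3, 4 and 2 counts after IL-33. MME was not among the 63 genes tested with all 6 libraries. Without Control 3 it met the filter through Controls 1 and 2 alone, where it was high, so its place among the 7 is no support for a difference. VPS35 encodes a retromer subunit.

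**Figure D5:**
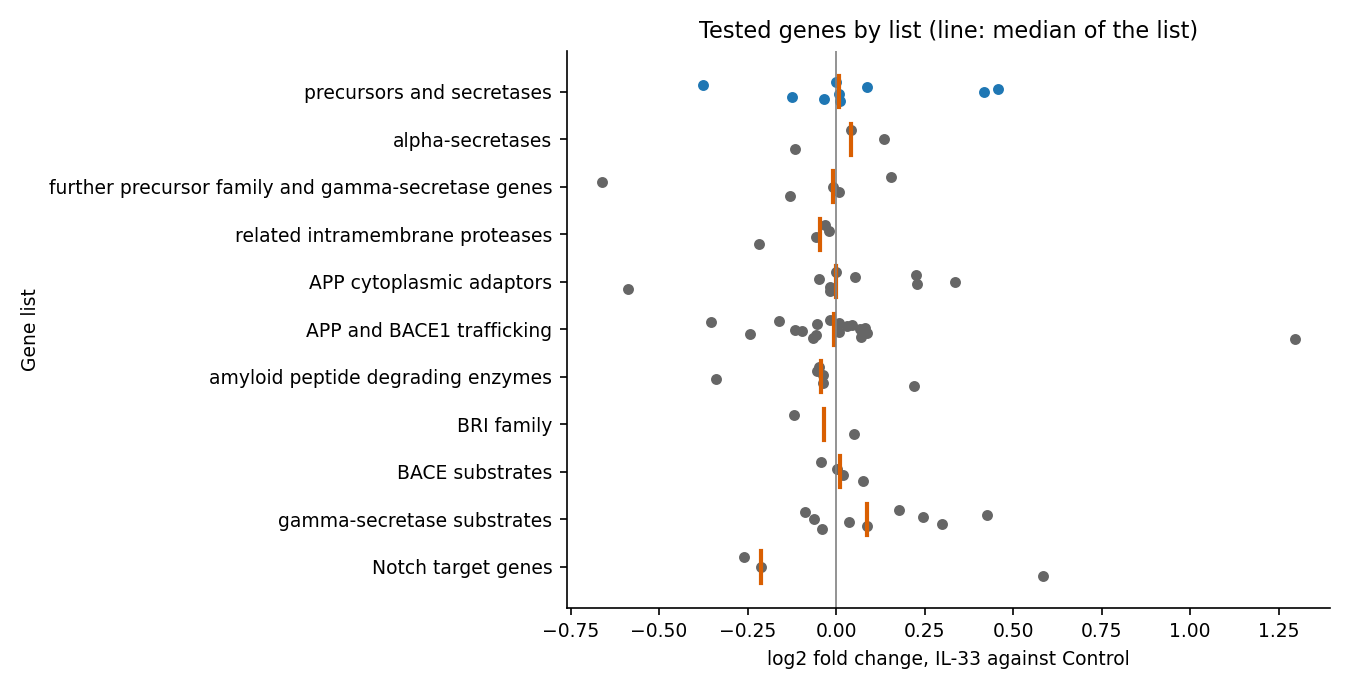
The log2 fold change of IL-33 against Control for each tested gene (points) of the 9 precursor and secretase genes (blue) and of 10 related lists (grey), with the median of each list as an orange line. The medians lie between -0.21 for the Notch targets, with 3 genes, and 0.087 for the gamma-secretase substrates.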

How the data were processed

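RNA of 6 HMC3 libraries was extracted with TRIZOL and read with the Lexogen QuantSeq 3' FWD kit, per the labels' protocols. The authors deposited 1 table of raw counts per gene symbol. Per the submitters' processing notes, STAR 2.7.5a, HTSeq 0.6.1, edgeR and hg38 were used, in roles they do not state. The annotation and strand setting: not given in the sources used here. Of 27470 rows, 1 held no values.

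Each column matched 1 library title. Genes were filtered with filterByExpr (count minimum 10, total minimum 15), scaled by TMM and tested over all 12125 genes with edgeR 4.0.16 in R 4.3.3 (quasi-likelihood, robust, group as the sole term, Benjamini-Hochberg at 0.05). Log2 levels used a prior count of 2. A gene at 3 counts corresponds to between 0.294 and 0.523 CPM. The procedure was tested on simulated data. Intervals on counts cover counting error only. Replicate libraries differed by more than sampling noise (chi-square per degree of freedom 5.56 to 15.8), and none were merged.

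The members, the lists and the tests were chosen with earlier results of these data known. The text names all 9 members, the most abundant gene and the 2 with the smallest p of each list, and the 3 genes most like APP, BACE1 and NCSTN. RNF214, BACE1-AS, COPA, the lowest genes of Control 3 and the genes at an unadjusted p under 0.05 without it were named after their values were seen. Sequences are from RefSeq (7 of 9 members matched). Alternatives were DESeq2 1.42.0, limma-voom (limma 3.58.1), other scalings and filters, a replicate block and each library left out. Figures were drawn with matplotlib 3.10.9.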

Additional observations from a re-analysis of the deposited data

How the results depend on the processing

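No member passed the test in any of the 13 other fits run (a 10 CPM filter left 6 of 9 members to test). APH1A ran from 0.033 to 0.18 and APH1B from -0.68 to -0.17 with a library left out, and NCSTN from 0.0057 (without Control 3) to 0.78, so its difference was not kept. The log2 fold changes likewise ran from -0.047 to 0.061 for APP, -0.11 to 0.063 for APLP2, -0.55 to 0.063 for BACE1, -0.065 to 0.14 for BACE2, -0.16 to 0.70 for PSEN2 and -0.088 to 0.081 for PSENEN, so their signs were not fixed. The same ranges were -0.028 to 0.050 for DAB2, -0.0076 to 0.024 for RTN4, -0.19 to 0.15 for CTSD, -0.068 to 0.15 for ITM2B, -0.43 to 0.12 for ITM2C, -0.17 to 0.25 for SEZ6L2, -0.049 to 0.19 for NRG1 and -0.38 to 0.19 for JAG1. PSENEN (main value -0.0011) had 0.013 with library size alone, 0.0014 without the low-count filter, 0.0057 with a 10 CPM filter and 0.0096 with limma-voom. DAB2 (main value -1.8e-05) had 0.013, 0.0026, 0.0065 and 0.0045 in the same order and 0.0011 with the replicate block, and SEZ6L2 had -0.0031 with DESeq2's size factors and -0.0051 with DESeq2. These shifts are small beside the SE, and the cause was not tested. List medians with a library left out ran from -0.0057 to 0.080 for the APP adaptors, -0.062 to 0.0035 for trafficking and -0.011 to 0.36 for the gamma-secretase substrates, and the pathway genes at an unadjusted p under 0.05 from 0 to 7. Over all genes, the 0 changed became 3 without the low-count filter (KIRREL3-AS2, MALAT1 and NEAT1), 1 with DESeq2 (KIRREL3-AS2) and 0 to 6 with a library left out, the 6 without Control 3 (with ADAMTSL1, ARCN1, LTB4R and PAIP2 beside KIRREL3-AS2 and MALAT1); none is a member or a pathway gene. The labels do not say that replicate numbers pair the libraries, same-numbered deviations correlated at -0.086, 0.027 and -0.14, and with the replicate block 0 genes changed, with 213 at an unadjusted p under 0.05 against 295. Depth limits PSEN2 most, at 17 to 67 counts per library.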
